A study of Populus x canadensis with 12 samples.

Results

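The genes described here are the steady genes of poplar leaves under water deprivation: 84 of the 41335 gene IDs in the deposited table. They were chosen from the measured values. A gene was taken when its mean over all 12 libraries was at least 20 RPKM (reads scaled to 1e+06 reads of a library and to a kilobase of gene model) and its highest and lowest values differed by at most 0.7 on the scale of log2(RPKM + 1), a difference of 1.62-fold in RPKM + 1. Of the 7226 genes with a mean of at least 20 RPKM, 1.16% met the limit. The values of these 84 genes are therefore given as a description, and their small stage differences are what the choice asked for.

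Leaf RNA came from single greenhouse plants, rooted cuttings of 2 hybrids, 89 and 85, that had Populus deltoides as mother and Populus nigra as father (Populus x canadensis). Each hybrid gave 2 watered control plants (C), 2 under moderate drought (D1) and 2 under severe drought (D2). Each of the 12 libraries carries its own clone number, so the replicates of a group are separate plants. Water was withheld for 8 or 13 days, and the labels do not tie the days to D1 and D2 nor give a harvest day, so the effect of time cannot be told apart from that of drought.

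Cells keep many of their transcripts near a constant share of all messenger RNA, and genes of this kind are often called housekeeping genes. In plant work, transcripts of actins, tubulins, ubiquitins and translation elongation factors have served as references against which other genes are measured, on the condition that the chosen gene is steady in the tissue and stress at hand. Drought closes stomata, slows photosynthesis and changes a large part of the leaf's transcripts, so a steady transcript there has to be looked for in the data. The deposited table gives IDs without gene names, so no function is given for any ID below, and markers of leaf cell types could not be checked. In whole leaves, fewer cells of a type and less RNA per cell cannot be told apart.

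RPKM is a share of each library's own reads, and a gene that is steady on this scale is steady relative to the rest of the library. The library totals recovered from the RPKM values lay between 2259634 and 10509089 reads. Reads of the listed genes made up nearly all of each total, so reads outside the gene models are not counted in it. All values above 0 in the table were whole numbers of reads within 0.01 reads once length and library total were recovered, so the reads behind each steady gene are known. The shallowest value of a steady gene rested on 22 reads, and the median steady gene had 139 reads in its least read library and 3541 reads in all.

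The steady genes covered a moderate span of levels. Their means ran from 20.1 to 508.9 RPKM, with a median of 49.0 RPKM, against a median of 45.9 RPKM in the other 7142 genes of at least 20 RPKM, whose means reached 38415 RPKM. By level, 44 of 3900 genes between 20 and 50 RPKM were steady (1.13%), as were 24 of 1725 between 50 and 100 RPKM (1.39%) and 15 of 1368 between 100 and 500 RPKM (1.10%). Among the 233 genes of 500 RPKM or more, 1 was steady (0.429%). Ranges of the steady genes ran from 0.45 to 0.69 with a median of 0.63, and 14 genes stayed within 0.5. The ratio of the highest to the lowest RPKM of a gene lay between 1.37 and 1.65. The other genes had a median range of 2.204, and in 4014 of the 7226 genes the range was above 2.

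**Figure D1:**
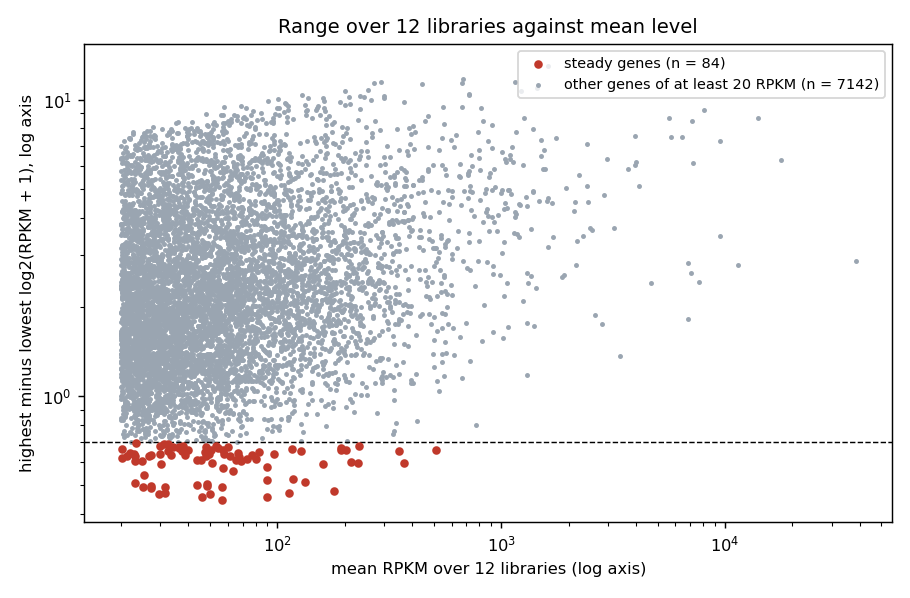
Range over 12 libraries, as the highest minus the lowest log2(RPKM + 1), against mean RPKM, both on log axes, for the 84 steady genes (red) and the other 7142 genes with a mean of at least 20 RPKM (grey). The dashed line is the limit of 0.7; the steady genes sit below it at means of 20.1 to 508.9 RPKM, and most other genes lie far above it.

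At the limits, membership turned on very small differences. The 3 steady genes nearest the range limit had ranges of 0.690, 0.692 and 0.694, and the 3 nearest genes outside it had 0.702, 0.702 and 0.703. The steady genes of lowest mean had 20.1 and 20.2 RPKM. Those just below the limit on the mean had 19.0 and 18.5 RPKM with ranges of 0.50 and 0.65.

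The gene with the smallest range was Potri.004G092900.1 (chromosome number 4 in the ID, coding length 1968 bp), with a range of 0.45 and a mean of 56.8 ± 6.20 RPKM (SD, n = 12). In C it had 67.0 and 52.3 RPKM in hybrid 89 and 55.6 and 59.1 RPKM in hybrid 85. In D1 it had 62.3 and 67.4 RPKM in hybrid 89 and 49.5 and 49.2 RPKM in hybrid 85, and in D2 57.3 and 57.0 RPKM in hybrid 89 and 52.2 and 52.6 RPKM in hybrid 85. As deposited, the stages overlapped throughout, while within D1 and within D2 both plants of hybrid 89 stood above both plants of hybrid 85. With median-ratio scaling, described below, the hybrids overlapped in D2 and the range of the gene was 0.73. The mean over stages was 60.6 ± 6.03 RPKM in hybrid 89 and 53.0 ± 3.78 RPKM in hybrid 85 (SD, n = 6 each).

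Second in order was Potri.001G115900.1 (chromosome number 1, 912 bp), with a range of 0.46. Its C plants averaged 94.1 ± 12.6 RPKM, its D1 plants 88.9 ± 11.9 RPKM and its D2 plants 86.9 ± 11.2 RPKM (SD, n = 4). Plants of the same stage and hybrid differed as much as any others here: in D1 the 2 plants of hybrid 89 had 76.1 and 104.3 RPKM, close to the lowest and highest values of all 12 libraries, which were 76.1 and 104.7 RPKM.

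The most abundant steady gene was Potri.012G081700.1 (chromosome number 12, 606 bp), with a mean of 508.9 RPKM and a range of 0.66. Its C plants averaged 507.8 ± 81.2 RPKM, its D1 plants 508.8 ± 55.2 RPKM and its D2 plants 510.1 ± 91.4 RPKM (SD, n = 4). Single plants ran from 387.5 RPKM in replicate 2 of hybrid 89 in D2 to 611.3 RPKM in replicate 1 of hybrid 89 in C. Its range was 1.03 with median-ratio scaling and 0.60 with quantile normalization, both described below. Its stage means were not compared under these scalings. As deposited, its stage means were nearly equal, and its spread lay among plants of a stage. The second most abundant, Potri.001G356900.1 (chromosome number 1, 1548 bp, mean 369.0 RPKM), was the other way about. In C it had 396.7 and 431.5 RPKM in hybrid 89 and 336.4 and 345.0 RPKM in hybrid 85. In D1 it had 314.1 and 302.0 RPKM in hybrid 89 and 297.0 and 326.3 RPKM in hybrid 85. In D2 it had 435.5 and 353.5 RPKM in hybrid 89 and 441.7 and 448.8 RPKM in hybrid 85. As deposited, all 4 D1 plants lay below all 4 C plants and all 4 D2 plants, and the C and D2 plants overlapped. With median-ratio scaling, the D1 plants overlapped the D2 plants and, by a narrow margin, the C plants.

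**Figure D2:**
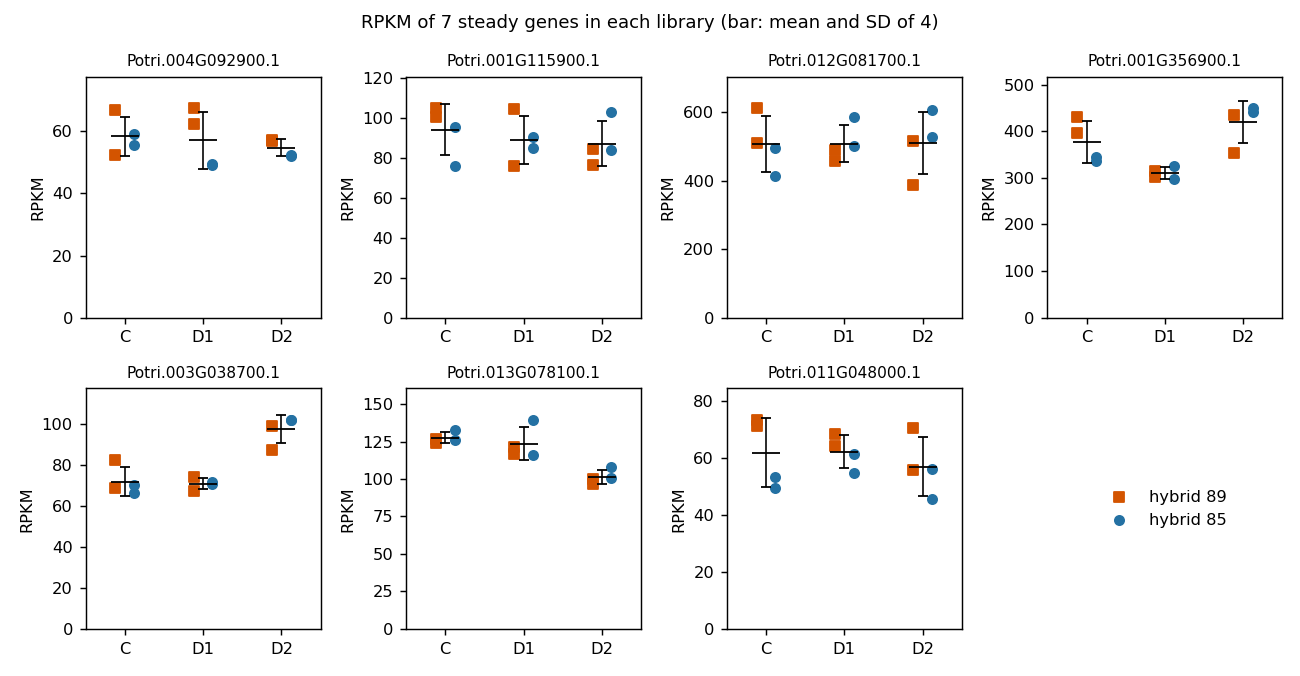
RPKM of 7 steady genes in each library by stage, on axes that start at 0. Orange squares are plants of hybrid 89 and blue circles plants of hybrid 85; the bars give the mean and SD of the 4 plants of a stage. On this deposited scale Potri.003G038700.1 is highest and Potri.013G078100.1 lowest in D2, and Potri.011G048000.1 is higher in hybrid 89.

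A limit of 0.7 leaves room for small differences between stages. The D2 mean minus the C mean ran from -0.33 to 0.44 on the log2 scale, with a median of 0.08, and the D1 mean minus the C mean from -0.33 to 0.33, with a median of 0.01. In 28 of the 84 genes D2 and C means differed by at most 0.1, and in 9 by over 0.3. For D1 and C the numbers were 35 and 6. For comparison, 5.28% of the other genes of at least 20 RPKM had D2 and C means within 0.1, and the median size of their difference was 0.93, against 0.14 in the steady genes. The steady genes were above C in D2 in 53 and below in 31, and in D1 in 43 and 41. Both comparisons share the C plants. These signs depended on scaling, as given below.

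The steady gene with the largest D2 excess was Potri.003G038700.1 (chromosome number 3, 1935 bp). In D2 it had 98.8 and 87.3 RPKM in hybrid 89 and 102.0 and 101.9 RPKM in hybrid 85, against 82.3 and 68.5 RPKM in hybrid 89 and 66.3 and 70.1 RPKM in hybrid 85 in C. In D1 it had 73.9 and 67.4 RPKM in hybrid 89 and 70.5 and 71.6 RPKM in hybrid 85. Every D2 plant lay above every C and D1 plant, and the D2 minus C difference was 0.44 ± 0.17 (limma SE, log2). At the other end stood Potri.013G078100.1 (chromosome number 13, 489 bp). It had 96.7 and 99.9 RPKM in hybrid 89 and 100.5 and 108.0 RPKM in hybrid 85 in D2, against 124.3 and 126.7 RPKM in hybrid 89 and 126.1 and 132.8 RPKM in hybrid 85 in C. In D1 it had 121.5 and 116.9 RPKM in hybrid 89 and 139.5 and 116.3 RPKM in hybrid 85. Every D2 plant lay below every C and D1 plant, and the D2 minus C difference was -0.33 ± 0.17 (limma SE, log2). Both genes were picked as the ends of this difference, and its size depended on scaling. In Potri.003G038700.1 it was 0.38 with equal RPKM sums, 0.29 with median-ratio scaling and 0.10 with quantile normalization, and the D2 and C plants overlapped under the last 2 of these. In Potri.013G078100.1 it was -0.39 with equal sums, -0.48 with median ratios and -0.68 with quantiles, and every D2 plant stayed below every C and D1 plant under each.

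**Figure D3:**
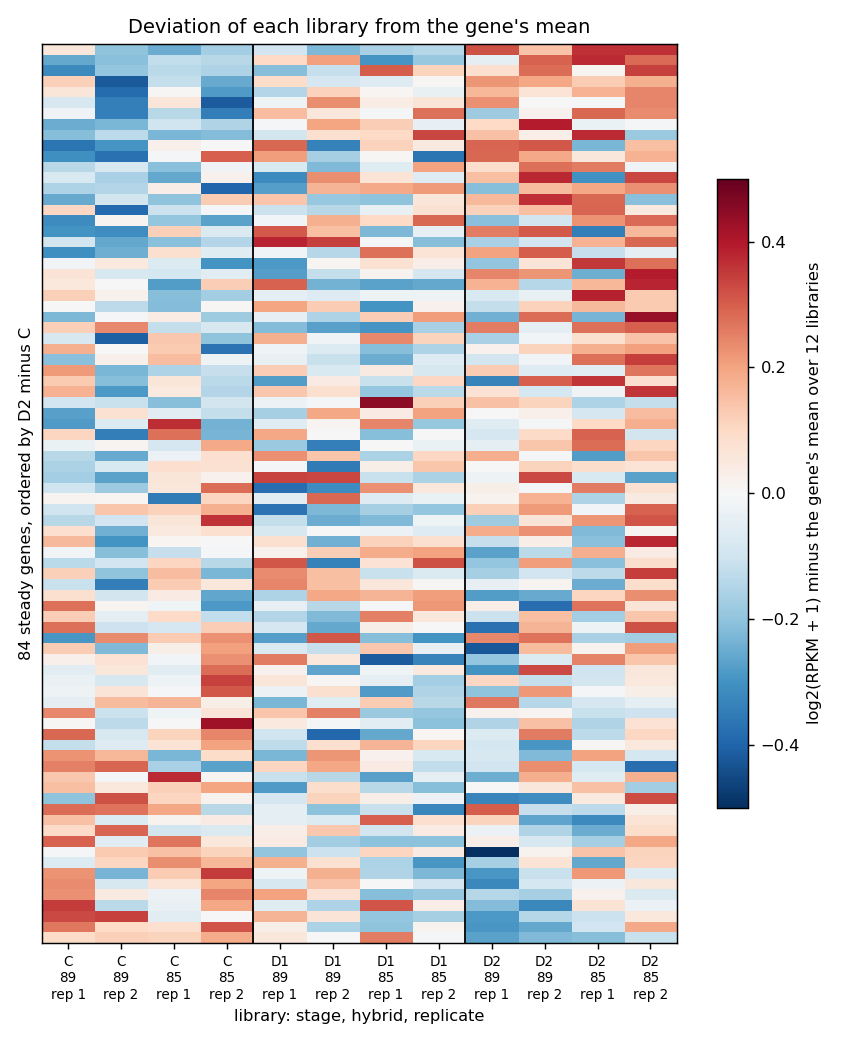
Deviation of log2(RPKM + 1) in each library from the gene's own mean over 12 libraries, for the 84 steady genes (rows, ordered by D2 minus C from top to bottom) and the libraries by stage, hybrid and replicate (columns). Red is above and blue below the gene's mean; in the top rows D2 is mostly red and in the bottom rows mostly blue, over a span of -0.33 to 0.44 in D2 minus C, and single libraries deviate by up to 0.499.

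A fit over the 24117 genes that reached 1 RPKM in 4 or more libraries called none of the 84 steady genes in any stage or hybrid comparison (limma on log2(RPKM + 1), stage and hybrid as terms, Benjamini-Hochberg adjusted p below 0.05). Since the choice used the same values, these counts are a description. Over all genes tested, the fit called 5.56% in D1 against C, 40.8% in D2 against C, 34% in D2 against D1 and 2.94% in hybrid 89 against hybrid 85. At an unadjusted p below 0.05, the steady genes past it numbered 0, 1, 2 and 2 in the same order, and limma-voom on the recovered reads called 0 in each. The fit lends each gene some of the spread of other genes at its level. The median limma SE of a stage difference in the steady genes was 0.19, against 0.11 from their own within-group spread. Any stage difference that varies between hybrids also enters the limma SE, whose terms are additive. The other SE pools only the spread within the 6 groups of 2 plants, so the gap does not measure the lending alone. Potri.003G038700.1 came nearest to the threshold (limma adjusted p = 0.0526 in D2 against C, with all 4 D2 plants higher). It was called with a pseudocount of 0.1 (adjusted p = 0.0438), with no filter on low values (0.043) and when replicate 1 of hybrid 89 in C was left out (0.0483). It was not called with median-ratio scaling (0.256), quantile normalization (0.673), the replicate block (0.0822) or limma-voom (0.0625), nor with any other single library left out (adjusted p up to 0.114). Potri.013G078100.1 (limma adjusted p = 0.13 as deposited) was called as lower in D2 against C with median ratios (0.0467) and quantiles (0.00475), and with quantiles also in D2 against D1 (0.0121). In the fit that left out replicate 1 of hybrid 89 in D2, which called 37.3% of all genes tested in D2 against C, the single call among the steady genes was Potri.005G025100.1, named here after its values were seen, with a D2 minus C difference of 0.52 ± 0.18 (limma SE, adjusted p = 0.0415).

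Hybrid differences in the steady genes had a median size of 0.07, over 6 plants of each hybrid. Hybrid 89 minus hybrid 85 ran from -0.32 to 0.33 (log2), and its median was -0.03, against -0.13 in the other genes of at least 20 RPKM. The sign of the steady genes' median turned under the other scalings, at 0.01 with equal RPKM sums, 0.003 with median ratios and 0.03 with quantiles, and 44, 43 and 49 of the 84 genes were then above 0, against 34 as deposited. In 51 steady genes the size was at most 0.1 and in 2 it was over 0.3. The largest, singled out after its values were seen, was in Potri.011G048000.1 (chromosome number 11, 948 bp). It had 55.7, 69.3 and 73.3 RPKM as the lowest, median and highest of the 6 plants of hybrid 89, against 45.5, 53.97 and 61.3 RPKM in hybrid 85. The hybrids overlapped in this gene, between 55.7 and 61.3 RPKM, and their difference was 0.33 ± 0.14 (limma SE, log2). No steady gene was called for a difference between hybrids in the drought effect, where the fit called 0% of all genes tested for D1 and 0.469% (113 genes) for D2, so a count of 0 among 84 is near that background. At an unadjusted p below 0.05, 1 steady gene was past it for D1 and 0 for D2 (limma, 2 plants per group).

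No value of a steady gene lay further than 0.499 from the gene's mean on the log2 scale. Of the 1008 values (84 genes in 12 libraries), 800 lay within 0.25 of it. With RPKM as deposited, D2 held the highest library in 41 of the 84 genes, C in 24 and D1 in 19. The lowest library was in C in 33, in D1 in 29 and in D2 in 22. These counts were not taken under the other scalings, which changed the signs of the stage differences. Replicate 2 of hybrid 85 in D2 was the highest in 19 genes and the lowest in 1. Replicate 1 of hybrid 89 in D2 was the lowest in 14 and the highest in 3, and replicate 2 of hybrid 89 in C the lowest in 13 and the highest in 3. The median deviation of the steady genes was 0.12 in replicate 2 of hybrid 85 in D2, -0.05 in replicate 1 of hybrid 89 in D2 and -0.09 in replicate 2 of hybrid 89 in C. In 17 genes the highest and the lowest library belonged to the same stage. Together the steady genes made up 0.630 ± 0.028% of the summed RPKM of the C libraries, 0.642 ± 0.020% of that of D1 and 0.637 ± 0.034% of that of D2 (SD, n = 4 each). Of all reads they took 0.855 to 0.903% in the C libraries, 0.859 to 0.876% in those of D1 and 0.880 to 1.001% in those of D2.

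Steady genes were longer than the others, a property that was not part of the rule but bears on how many reads a gene gets. Their median coding length was 1446 bp against 1005 bp in the other genes of at least 20 RPKM, and 72.6% of them reached 1000 bp against 50.2%. With the genes of at least 20 RPKM in 4 length classes of about equal size, 8 of the 1807 shortest were steady (0.443%), and 40 of the 1814 longest, those of 1470 bp or more (2.21%). At equal RPKM a longer gene has more reads and a smaller counting error; the parts of length and depth in the result were not tested.

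The limit on the range over 12 libraries also bounds the differences between plants of the same stage and hybrid, so the following values describe the choice. The median within-group SD of the steady genes was 0.16 on the log2 scale, and the median SD that counting alone gives at their reads was 0.09. The corresponding medians were 0.34 and 0.13 in the other genes of at least 20 RPKM. The within-group SD was at most 1.5 times the counting SD in 36 steady genes (42.9%) and in 19.2% of the other genes. The steady genes ran from 0.47 to 6.13 times the counting SD, and 48 of them were above 1.5 times.

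Most genes went past the limit within at least 1 stage. Of the 7226 genes of at least 20 RPKM, 3874 stayed within 0.7 over the 4 libraries of C (53.6%), 3455 over those of D1 (47.8%) and 2017 over those of D2 (27.9%). In 842 genes (11.7%) all 3 stages, taken separately, stayed within the limit, and 84 of these did so over all 12 libraries. Over D1 and C together 1094 genes did so, over D2 and D1 304, and over D2 and C 263. More libraries give a wider range for any gene, so counts over 4, 8 and 12 libraries are not on the same footing. Between counts over 8 libraries, those with D2 were the smaller. Depth differed between stages as well. Recovered totals were 2259634 to 3931067 reads in D2, 3181833 to 4847233 in D1 and 2534325 to 10509089 in C. The part of depth in these counts was not tested.

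The rule was also applied to some of the libraries, and the genes it took were read in libraries it had not used. By the 6 libraries of hybrid 85, 833 genes were steady, and 170 of them (20.4%) stayed within 0.7 in the 6 libraries of hybrid 89, against 5.25% of the 6320 other genes of at least 20 RPKM in hybrid 85. Their median range in hybrid 89 was 1.03, against 1.92 in the others. By hybrid 89, 477 genes were steady and 167 (35.0%) stayed within 0.7 in hybrid 85, against 10.3% of 6760 others, with median ranges of 0.84 and 1.51. Steadiness in a hybrid thus went along with a narrower range in plants of the other hybrid, although most of the genes exceeded 0.7 there. The others were not matched for reads. Over all 12 libraries, genes were also classed by reads in their least read library. In the lowest class 0 of 1768 were steady, and in the highest 56 of 1811 (3.09%). The part of counting error was not tested. Without replicate 1 of hybrid 89 in D2, the share of 20.4% was 36.4%.

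Across stages the level in D2 was read, in place of the range, so the shares below are on another measure than those between hybrids. By the 8 libraries of C and D1, 1050 genes were steady. In D2, 311 of them (29.6%) had a mean within 0.35 of the mean of the other 8 libraries, against 22.6% of 5693 other genes. The median size of the shift to D2 was 0.60 in the genes steady over C and D1 and 0.85 in the others. Shifts in genes steady over C and D1 ran from -4.68 to 4.30, so a narrow range over watered and moderately dry plants did not bound the level in severe drought.

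**Figure D4:**
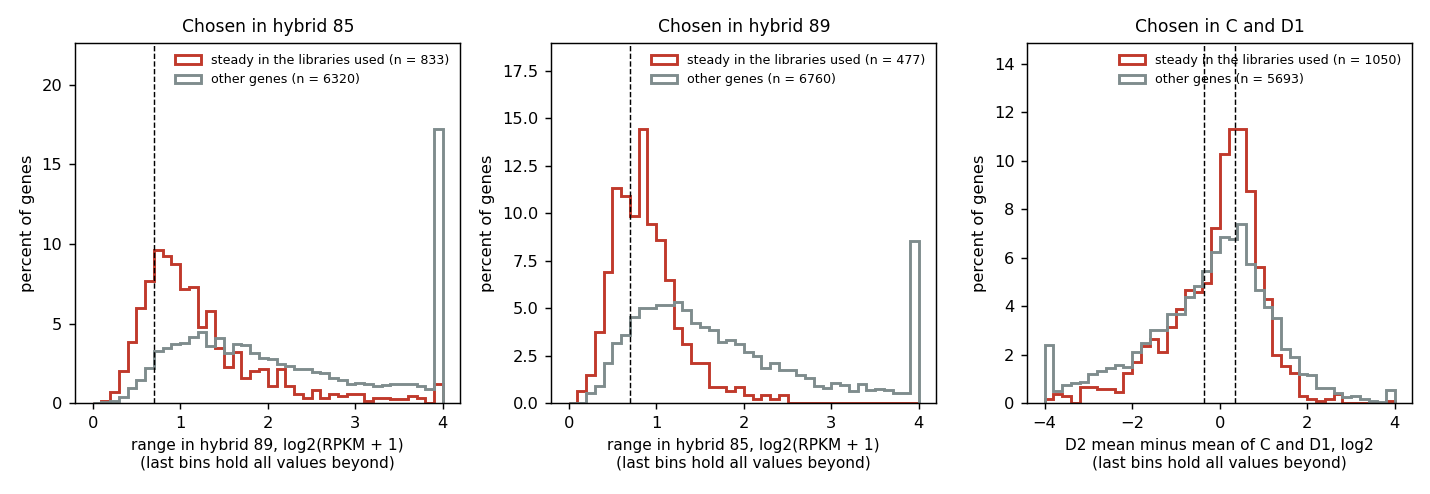
Histograms, in percent of genes, of values in libraries that were not used to choose the genes, for genes steady in the libraries used (red) and other genes of at least 20 RPKM there (grey). The left and middle panels give the range in the other hybrid with the limit of 0.7 dashed, which 20.4% and 35.0% of the steady genes stay under; the right panel gives the D2 mean minus the mean of C and D1 with dashed lines at 0.35 on either side of 0, between which 29.6% lie.

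Membership depended on how the libraries were scaled to each other. With RPKM sums made equal, 85 genes were steady and 61 of them were among the 84. With median-ratio scaling, which sets the median gene equal across libraries, 88 were steady, 41 of them among the 84. With quantile normalization, which gives all libraries the same distribution, 157 were steady, 48 of them among the 84. The median range of the 84 genes was 0.63 as deposited, 0.65 with equal sums, 0.70 with median ratios and 0.68 with quantiles. Signs moved as well. In D2 against C, the median difference of the 84 genes was 0.08 as deposited, 0.02 with equal sums, -0.08 with median ratios and -0.22 with quantiles, and 53, 46, 27 and 13 genes were above 0 in the same order. In D1 against C, the medians were 0.01, 0.06, -0.18 and -0.05. No direction of the group as a whole can therefore be given, and quantile normalization called 8 of the 84 genes lower in D2 against C (limma, adjusted p below 0.05), where it called 20.7% of all genes tested lower. All 7 genes in the plot of single genes exceeded 0.7 with median-ratio scaling, where their ranges ran from 0.73 to 1.03, and 4 of them did with quantile normalization.

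In all, 23 of the 84 genes (27.4%) were steady under all 4 scalings. They made up 8 of the 14 genes with a range of at most 0.5 and 15 of the other 70. Their means ran from 23.1 to 232.2 RPKM, with a median of 47.9 RPKM, and their median coding length was 1518 bp. Of these, 15 also passed with pseudocounts of 0.1 and 0.5 and with every library thinned to the reads of the shallowest.

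Among these 23, the smallest worst-case ranges belonged to Potri.008G203600.1 and Potri.006G108800.1, which were singled out after their values were seen. Potri.008G203600.1 (chromosome number 8, 1119 bp) had a mean of 29.7 RPKM and ranges of 0.47 as deposited, 0.49 with equal sums, 0.51 with median ratios and 0.60 with quantiles. In C it had 29.3 and 25.4 RPKM in hybrid 89 and 27.2 and 29.4 RPKM in hybrid 85. In D1 it had 29.99 and 32.3 RPKM in hybrid 89 and 33.7 and 34.1 RPKM in hybrid 85, and in D2 24.4 and 26.8 RPKM in hybrid 89 and 33.6 and 30.4 RPKM in hybrid 85. As deposited, all 4 D1 plants lay above all 4 C plants, and D2 overlapped both. This order did not hold with median-ratio scaling, where the D1 and C plants overlapped. The log2 factors of the hybrid 89 libraries under that scaling were -0.22 and -0.27 in C and 0.13 and 0.14 in D1. In D1 and D2, both plants of hybrid 89 stood below those of hybrid 85 as deposited. Potri.006G108800.1 (chromosome number 6, 1959 bp) had a mean of 48.5 RPKM and ranges of 0.50, 0.58, 0.60 and 0.62 in the same order of scalings. It had 48.2 and 43.9 RPKM in hybrid 89 and 41.3 and 48.4 RPKM in hybrid 85 in C. In D1 it had 55.5 and 52.8 RPKM in hybrid 89 and 39.0 and 49.0 RPKM in hybrid 85, and in D2 44.3 and 52.3 RPKM in hybrid 89 and 54.0 and 52.8 RPKM in hybrid 85. Its 3 stages overlapped.

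**Figure D5:**
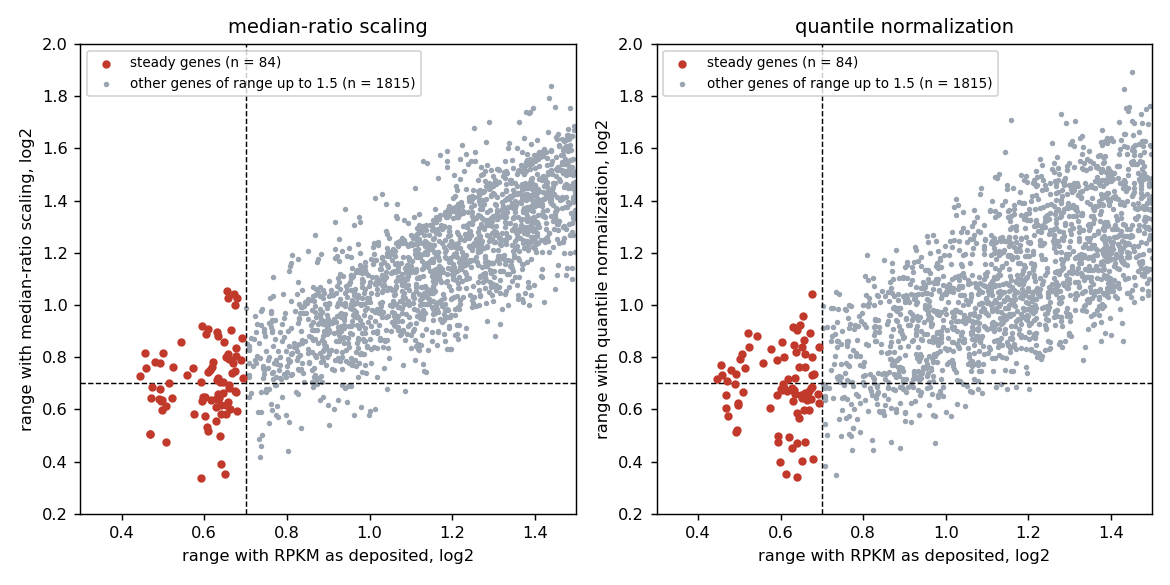
Range over 12 libraries after median-ratio scaling (left) and quantile normalization (right) against the range of RPKM as deposited, all on the log2 scale, for the 84 steady genes (red) and the other genes of at least 20 RPKM with a range up to 1.5 (grey). Dashed lines mark 0.7; 41 of the 84 steady genes stay at or under it on the left and 48 on the right, and grey points under the horizontal line are genes steady only after rescaling.

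The steady genes were spread over the chromosome numbers in the IDs. They numbered 11 of 859 genes of at least 20 RPKM on chromosome number 1, 9 of 562 on 6 and 8 of 445 on 8, and the highest shares were 2.28% on 18 (6 of 263) and 2.21% on 17 (5 of 226). None of the 263 genes on chromosome number 15 was steady, nor any of the 116 without a chromosome number. No steady genes were next to each other in the table's order of IDs. The closest pair, Potri.001G085600.1 and Potri.001G087300.1, was 17 IDs apart.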

How the data were processed

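RPKM values per library were computed by the authors, per the file header, and the submitters' processing notes name Trimmomatic 0.32. The build, annotation, aligner and read counting (strand, several matches) were not given in the sources used, so near-identical copies, overlapping genes and antisense partners are uncertain for every gene. The authors' 3 columns of stage means were not used. Columns were mapped by hybrid and clone number. Library totals, coding lengths (multiples of 3 bp) and reads were recovered from the steps in the RPKM values, and the recovery was tested on simulated data. Floors and counting errors cover counting only.

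Genes were tested with limma 3.58.1 in R 4.3.3 on log2(RPKM + 1), which understates changes of low genes, with stage and hybrid as additive terms, trended variances and Benjamini-Hochberg adjustment over all genes that reached 1 RPKM in 4 or more libraries. The within-group SD pools the 6 groups of 2 plants. The counting SD is that of a Poisson count on the log2 scale. Alternatives were other limits, pseudocounts, filters and scalings, thinned reads, limma-voom, a replicate block and each library left out.

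The members and lists were chosen with earlier results of these data known. Named by rule are the 2 genes of smallest range, the 2 of highest mean, and those with the largest and smallest D2 minus C difference. Planned lists by gene product, cell type markers, promoter motifs and paralogs were not used, as the IDs come without names or sequences here. Splits of the range by stage and genes steady under all scalings were looked at after seeing the data.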

Additional observations from a re-analysis of the deposited data

Results flagged for a closer look

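Of 40 groups of 4 or 6 libraries checked (7 named genes and the summed share of the steady genes, by stage and by hybrid), 1 held a library far from the others, and chance gives about 1 in 20. In Potri.001G356900.1, replicate 2 of hybrid 89 in D2 had 353.5 RPKM against 435.5 to 448.8 RPKM in the other D2 plants, a gap of 0.860 of the whole range of D2. For the difference between hybrids in the drought effect, the smallest adjusted p of a steady gene was 0.298 in D1 and 0.313 in D2 (limma), where 0% and 0.469% of all genes tested were called.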

How the results depend on the processing

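The count of 84 steady genes was 40 with a minimum mean of 50 RPKM, 14 with a range limit of 0.5, 536 with a limit of 1, 157 with quantile normalization and 10360 with no minimum mean, of which 10211 had a mean under 1 RPKM. It was 833 with hybrid 85 alone, 477 with hybrid 89 alone and 1050 with C and D1 alone. It was within 1.5 times of 84 with a minimum of 10 RPKM (121), other pseudocounts, equal sums, median ratios and thinned reads (71). With 1 library left out it was 89 to 160, above 1.5 times only without replicate 1 of hybrid 89 in D2 (160) and replicate 1 of hybrid 85 in D2 (127); fewer libraries give a narrower range by construction.

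Of the steady genes, limma with a pseudocount of 0.1 called 1 in D2 against C (40.6% of all genes tested) and 1 in D2 against D1 (33.4%). With no filter on low values it called 1 (28.9%) and 1 (22.9%), and with quantile normalization 8 (39.5%) and 1 (32.1%). Median-ratio scaling called 1 in D2 against C (40.7%), Potri.013G078100.1 (adjusted p = 0.0467). With 1 library left out, 0 to 1 were called in D2 against C and 0 in the other comparisons. With the replicate block 0 were called in each comparison, as without it. The labels do not say that a number marks anything shared, and deviations of same-numbered plants correlated at -0.06 to 0.14 across stages.

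The share of genes steady in hybrid 85 that were steady in hybrid 89 was 28.4% with quantile normalization and 18.3 to 36.4% with 1 library left out. A hybrid 89 library left out cannot lower that share, by construction. The share of genes steady in C and D1 and near the same level in D2 was 38.8% with quantile normalization and 27.1 to 31.3% with 1 library left out. The causes were not tested. Of 105 ranges of the 7 single genes under alternatives, 13 moved by more than the within-group SD, all under another scaling. These were all 7 with median-ratio scaling and 6 of 7 with quantile normalization. Most of the 105 come from leaving out 1 library, which cannot widen a range, so the total of 105 says little about steadiness.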
